A study of Mus musculus with 6 samples.

Results

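The measured items were 37 imprinted genes, 6 of which make long noncoding RNAs, followed through every probe set that named exactly 1 of them. Of the 37, 35 had such a probe set, with 95 probe sets in all, and 28 genes with 59 probe sets had enough signal to be tested. H19 was read only by a probe set that also names Mir675, and Zrsr1 had no probe set of its own. The probe sets of the members were found by gene name in the platform annotation, out of 18193 genes so named on the array. The list of members was drawn up with earlier results of these data known.

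Total RNA from mouse ovaries at stage E15.5 was hybridised to Affymetrix arrays, 1 array per sample, in 3 samples with conditional removal of Dmrt1 and 3 wild-type samples. Dmrt1 encodes a DM domain transcription factor of germ cells and of the testis, and the comparison asked what its removal does to gene expression in the fetal ovary. The labels give the same age and tissue for both groups; the Cre driver, the floxed allele, the strain and whether the wild-type samples carry any allele are not named in them. They also do not say whether the samples came from separate animals, so each p-value reflects the spread among the samples at hand, and that spread may be technical.

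In genomic imprinting a gene is read mainly from the copy inherited from 1 parent, because a control region carries DNA methylation on the maternal or the paternal chromosome. Several control regions act through a long noncoding RNA that is made from the chromosome whose neighbouring coding genes are silent. Germ cells erase these marks before they enter meiosis in the fetal ovary and oocytes set new ones after birth, while somatic cells of the ovary keep the parental marks. The arrays read total RNA and cannot tell the parental copies apart.

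The promoters of 4 noncoding RNAs that had a probe set lower in knockout are shown because these RNAs lead the results. Each window runs from 250 bases before to 50 bases after the transcription start, 5′ to 3′, and comes from RefSeq on GRCm38.p6. In that annotation Airn overlaps Igf2r on the opposite strand, and Kcnq1ot1 overlaps Kcnq1. Capitals mark the letters TGCCGC on either strand (GCGGCA on the other), the core read by the imprint protector ZFP57. For Meg3, the first of its 2 annotated starts is given.
Airn (chr17:12741061-12741360, plus strand): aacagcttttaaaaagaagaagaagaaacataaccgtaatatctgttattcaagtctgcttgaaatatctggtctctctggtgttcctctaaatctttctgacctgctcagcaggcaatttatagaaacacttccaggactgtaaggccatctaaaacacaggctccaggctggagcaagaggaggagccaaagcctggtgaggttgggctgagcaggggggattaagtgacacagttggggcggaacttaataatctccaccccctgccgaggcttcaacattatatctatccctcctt
Kcnq1ot1 (chr7:143296498-143296797, minus strand): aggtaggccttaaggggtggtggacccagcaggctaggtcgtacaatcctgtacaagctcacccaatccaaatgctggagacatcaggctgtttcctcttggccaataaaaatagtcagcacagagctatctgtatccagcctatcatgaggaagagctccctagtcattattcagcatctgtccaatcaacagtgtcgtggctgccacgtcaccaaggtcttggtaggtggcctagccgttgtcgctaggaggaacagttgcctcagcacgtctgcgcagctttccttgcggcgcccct
Meg3 (chr12:109540746-109541045, plus strand): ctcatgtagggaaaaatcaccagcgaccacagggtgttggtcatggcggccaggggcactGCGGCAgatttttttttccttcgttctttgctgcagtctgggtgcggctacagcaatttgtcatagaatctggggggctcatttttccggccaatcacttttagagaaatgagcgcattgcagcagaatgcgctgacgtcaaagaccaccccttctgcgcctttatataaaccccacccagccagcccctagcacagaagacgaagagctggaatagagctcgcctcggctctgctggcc
Rian (chr12:109603695-109603994, plus strand): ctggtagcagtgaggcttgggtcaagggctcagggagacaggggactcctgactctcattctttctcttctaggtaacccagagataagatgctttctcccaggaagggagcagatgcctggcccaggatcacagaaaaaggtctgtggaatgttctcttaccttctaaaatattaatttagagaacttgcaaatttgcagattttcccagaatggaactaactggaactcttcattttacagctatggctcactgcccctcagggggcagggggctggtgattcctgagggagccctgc
Only the Meg3 window among these 4 held TGCCGC, which stood in 12 of 48 member windows (25.0%) and in 11.6% of all 32851 windows of that length. TGCCGC holds a CpG, and the windows were not matched for CpG count. Some windows of the same gene overlap, as for Mest, and were counted separately. The letters ACATTGT, which read as ACAATGT on the other strand, are a core that DM domain proteins can bind. They stood in 0 of the 48 member windows and in 2.96% of all windows; the 2 motifs do not overlap each other. Such letters are a description of the window and not a binding site. Promoter windows were matched for 31 of the 37 members.

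Meg3, Rian and Mirg are hosts of microRNAs, which the arrays did not measure. Within the RefSeq spans of these genes lie 3, 6 and 19 mature microRNAs. Those of the Meg3 hairpin Mir770 and of the Rian hairpin Mir370 are shown to identify the products of the hosts, with the seed (bases 2 to 8) in capitals.
mmu-miR-770-5p: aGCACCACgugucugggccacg
mmu-miR-770-3p: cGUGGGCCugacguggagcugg
mmu-miR-370-5p: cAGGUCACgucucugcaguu
mmu-miR-370-3p: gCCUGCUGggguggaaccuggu
These 4 have different seeds. The only seed shared by 2 of the hosted microRNAs was GGUUGCC, in miR-453 and miR-496a-5p of Mirg.

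Values are GCRMA intensities as deposited, on a linear scale, and differences are on the log2 scale, knockout minus wild type, with the moderated standard error of limma and n = 3 per group. A probe set was tested where its log2 intensity reached 4 on at least 3 of the 6 arrays, and limma p-values were adjusted by Benjamini-Hochberg over all 22040 tested probe sets. "Rose" and "fell" are used where the adjusted p was under 0.05. The brightest probe set of a gene is the one with the highest mean over the 6 arrays.

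The targeted gene could not be checked, because the Dmrt1 probe set lay under the filter on every array (5.97 to 8.55 in knockout, 8.47 to 13 in wild type). Knockout arrays had median intensities of 13.2 to 13.4 and wild-type arrays of 14.4 to 14.7. Xist, made from the inactive X chromosome, had a log2 level of 1.81 in knockout replicate 1 against 9.75 and 9.85 in the other knockout samples and 10.7 to 10.9 in wild type, so that sample stands apart and results are given with and without it. The tissue label fits its defining markers, with Ddx4 of germ cells at 10.18 to 11.03 and Foxl2 of pregranulosa cells at 7.01 to 8.23 (log2) over the 6 arrays. Among markers of other cells, the summed intensity of 12 stroma genes ran from 39929 to 43542 over the knockout arrays and from 46139 to 50838 over the wild-type ones, and that of 10 endothelium genes 2520 to 3253 and 3337 to 3771. Of these, 0 of 12 and 2 of 8 tested genes fell (1 of 8 without knockout replicate 1), and the endothelial Cdh5 and Pecam1 were under the filter on every array. Beside these and the marker counts that follow, 2.27% of all genes were lower and 1.28% higher at the brightest probe set. For 10 macrophage genes the sums were 7221 to 11189 (knockout) and 9961 to 12208 (wild type), and 2 of 10 fell (0 without knockout replicate 1). The germ cell markers summed to 9545 to 13896 and 8949 to 10217, and 1 of 8 tested was called higher, Sox2. All 3 wild-type arrays of Sox2 were under the filter, so it was tested only through knockout and had to differ; with them at the filter level it was at least 5.28-fold higher (2.99-fold without knockout replicate 1). Pregranulosa markers lay apart the other way from stroma, with sums of 14510 to 15179 (knockout) and 12787 to 13438 (wild type), and 0 of 10 passed. Of 3 tested erythroid genes 1 fell, Slc4a1 (-1.44, limma adjusted p = 0.0275; 0.0837 without knockout replicate 1). Whether these shifts took part in the results on imprinted genes was not tested; in whole ovary RNA, fewer cells of a type and less RNA per cell cannot be told apart.

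Imprinted genes had lower signal in knockout at 14 of their 59 tested probe sets (23.7%), and at 0 was it higher. Over all tested probe sets, 5.15% were lower and 1.46% higher. These counts depend on the filter. Without it, Kcnq1ot1 1446255_at and Phlda2 1417837_at also passed as higher and Rian 1427580_a_at as lower. The 14 belonged to 10 genes: the noncoding RNAs Airn, Kcnq1ot1, Meg3 and Rian, and the coding genes Igf2, Dlk1, Plagl1, Grb10, Impact and Gnas. At the brightest probe set of each gene, however, Airn alone fell, 1 of 28 genes (3.57%) against 2.27% lower and 1.28% higher over all genes. The other 13 calls were among the 31 other tested probe sets of these genes (41.9%), where 5.04% were lower and 0.994% higher over all genes. Without knockout replicate 1, 12 of the 59 were lower. Leaving out wild-type replicate 2 gave 9, and leaving out wild-type replicate 3 gave 8. Of the 14 calls, 3 were lost without knockout replicate 1, those of Impact and of 2 probe sets of Meg3, while the rest kept differences of -2.42 to -0.69 and limma adjusted p of 0.000328 to 0.0449. At the brightest probe sets 2 genes were lower without knockout replicate 2 or 3.

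The median difference of the 28 brightest probe sets was -0.06, with 18 of them negative and 8 with an unadjusted p under 0.05. That of the 31 others was -0.65. Over all genes the medians were 0.02 and -0.01. Of the 11897 brightest probe sets over all genes, 5543 were negative and 2076 had an unadjusted p under 0.05 in limma. In 24 of the 59 tested probe sets every knockout array lay below every wild-type array, in 1 every knockout array lay above, and in 34 the groups overlapped; over all tested probe sets 15.2% lay wholly below and 11.2% wholly above. The called probe sets were mostly dim: with a mean log2 level under 6, 5 of 15 fell, where 9.84% of all tested probe sets at that level were lower and 2.52% higher. These 5 include Meg3 1429256_at, which passed the filter only through wild type. From 6 to 8, 8 of 15 fell (5.3% lower and 1.42% higher over all). From 8 to 10, 0 of 5 did (2.59% and 1.1%), and at 10 or more, 1 of 24 (2.12% and 0.59%).

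**Figure D1:**
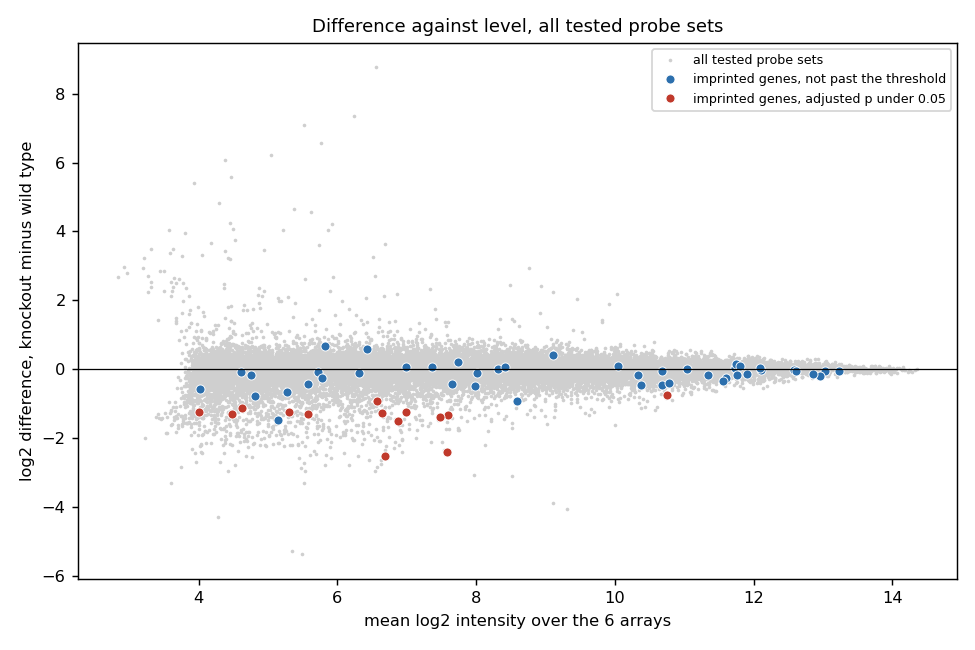
Log2 difference, knockout minus wild type (vertical axis), against the mean log2 intensity over the 6 arrays (horizontal axis) for all 22040 tested probe sets in grey and the 59 of imprinted genes in colour. The 14 that fell (red) lie below a mean of 8, apart from Dlk1 1442724_at near 10.75.

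Of the noncoding RNAs, 8 of 17 tested probe sets fell (47.1%) and 0 rose, against 5.15% lower and 1.46% higher over all tested probe sets. Among the 8, Meg3 1429256_at passed the filter only through wild type. The count was 6 without knockout replicate 1. Leaving out wild-type replicate 2 or 3 gave 5. Airn is the paternally expressed antisense RNA of the Igf2r domain. At its brightest probe set, 1451634_at, the intensities were 87, 81.8 and 79.7 in knockout and 175, 214 and 198 in wild type. The groups lay wide apart. Airn fell there by 1.24 ± 0.16 (limma adjusted p = 0.0014, 2.36-fold lower). At 1456139_at it had 38.2, 36.4 and 57.6 in knockout against 290, 248 and 206, and it fell by 2.51 ± 0.22 (limma adjusted p = 0.000184, 5.70-fold lower). The other tested probe sets of Airn did not pass. That at 1436627_at gave 29.5, 38.8 and 25.8 against 46.9, 49.1 and 49.9 (-0.65 ± 0.19, limma adjusted p = 0.0811), again with all knockout arrays below wild type. At 1457337_at the groups overlapped (-0.26 ± 0.24, 0.598), and 1446095_at was dim on all arrays, at 3.2 to 5.52.

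Igf2r, the maternally expressed receptor that clears IGF2 and the gene that Airn silences on the paternal copy, read 1470, 1520 and 1230 in knockout and 1710, 1910 and 2210 in wild type at its brightest probe set. All knockout arrays were below wild type, but the difference did not pass (-0.46 ± 0.13, limma adjusted p = 0.0662). A further probe set, 1424112_at, was not tested (9.98 to 13.4 against 14.8 to 18.4). A probe set that names both Airn and Igf2r, 1440979_at, was under the filter on all arrays.

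Kcnq1ot1 is the paternally expressed antisense RNA that silences the Kcnq1 domain, and its probe sets differed most among themselves. Its brightest, 1442029_at, read 306, 595 and 235 in knockout and 315, 348 and 348 in wild type, so the groups overlapped (0.06 ± 0.29, limma adjusted p = 0.94). In contrast, 1457781_at read 78, 79.7 and 92.2 against 402, 528 and 409. It fell by 2.41 ± 0.17 (limma adjusted p = 5.23e-05, 5.33-fold lower), the lowest adjusted p among the 59 member probe sets. At 1458161_at the intensities were 21.1, 24.8 and 32.2 against 53.3, 68.9 and 61.2, a fall of 1.24 ± 0.21 (limma adjusted p = 0.00528).

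The fourth, 1446255_at, ran the other way, at 22.5, 34 and 13.1 in knockout and 5.94, 6.07 and 4.86 in wild type. It did not reach the filter and was not tested in the reported analysis. All 3 wild-type arrays and 1 knockout array were under the filter level. With the wild-type arrays at that level it was at least 1.35-fold higher in knockout. In the alternative with no filter it passed as higher (1.95, limma adjusted p = 0.00256). The last pair of Kcnq1ot1 probe sets, 1441588_at and 1459443_at, read between 2.8 and 4.96 on every array.

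The coding genes of that domain did not pass. Kcnq1, a potassium channel, differed by 0.66 ± 0.25 (limma adjusted p = 0.162) and Cdkn1c, a cell cycle inhibitor that restrains growth, by -0.05 ± 0.11 (0.844), with overlapping groups in both. Phlda2, a restrainer of placental growth, was not tested. It read 61.8, 19.6 and 13.5 in knockout and 5.83, 6.43 and 6.46 in wild type, so every knockout array was higher, knockout replicate 1 most. All 3 wild-type arrays and knockout replicate 3 were under the filter level. With the wild-type arrays at that level Phlda2 was at least 1.59-fold higher in knockout, or 1.02-fold without knockout replicate 1. Ascl2, a transcription factor of the trophoblast, was dim at its 3 probe sets (2.29 to 10.9).

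Meg3, Rian and Mirg are the maternally expressed RNAs of the Dlk1-Dio3 domain. Meg3 had 11 probe sets, of which 7 were tested and 3 fell. Its brightest, 1439380_x_at, read 3030, 4320 and 3710 in knockout and 3660, 3970 and 4450 in wild type, with overlapping groups (-0.14 ± 0.13, limma adjusted p = 0.608). The next 3 by level were 1452183_a_at (-0.16 ± 0.13, 0.547), 1452905_at (-0.41 ± 0.13, 0.094) and 1426758_s_at (-0.46 ± 0.17, 0.146), and none of them passed.

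The 3 dimmest tested probe sets of Meg3 were those that fell. At 1428765_at the intensities were 63.4, 89 and 59 against 125, 119 and 150, and Meg3 fell by 0.91 ± 0.20 (limma adjusted p = 0.0246; 0.0739 without knockout replicate 1). At 1436713_s_at, with 18, 15.6 and 10.1 against 20.5, 48.6 and 42.8, it fell by 1.30 ± 0.33 (limma adjusted p = 0.0459, or 0.0536 without knockout replicate 1). There 2 knockout arrays were under the filter, and with them at its level Meg3 was at least 2.10-fold lower. At 1429256_at, with 8.3, 13.3 and 10.2 against 18.6, 26.4 and 31.1, it fell by 1.25 ± 0.25 (limma adjusted p = 0.0129). All 3 knockout arrays of the last were under the filter, so this probe set passed the filter only through wild type and had to differ; with them set at the filter level, it was at least 1.55-fold lower. The call at 1428765_at ended without any 1 of 5 arrays, that at 1429256_at without wild-type replicate 2 or 3, and that at 1436713_s_at in 8 of 13 other analyses. The 4 untested probe sets of Meg3 lay at 5.39 to 10.5 (knockout) and 8.71 to 17.5 (wild type).

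Rian, a host of small nucleolar RNAs, read 1070, 1480 and 1140 in knockout and 1100, 1420 and 1690 in wild type at its brightest probe set, 1452899_at. The groups overlapped (-0.18 ± 0.18, limma adjusted p = 0.615). At 1440001_at it had 54.9, 69.6 and 87.1 against 169, 215 and 215, and it fell by 1.52 ± 0.21 (limma adjusted p = 0.00174, 2.87-fold lower). Its 2 untested probe sets were also lower in every knockout array: 1427580_a_at read 9.63, 12.1 and 5.23 against 15.6, 19.3 and 18.6, and 1428055_at 7.63, 6.01 and 8.64 against 18.4, 10.2 and 11.5.

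Mirg, the microRNA host at the end of the domain, did not pass. At 1457030_at it read 80.6, 151 and 176 in knockout and 108, 124 and 145 in wild type (0.05 ± 0.28, limma adjusted p = 0.945), so knockout held both the lowest and the highest array. Its other probe set, 1440097_at, was dim, at 9 to 9.91 and 10.7 to 11.7.

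H19, the maternally expressed RNA of the Igf2 domain, shared its probe set with Mir675, the microRNA within it. The signal was bright and overlapped between the groups, at 9760, 10600 and 10400 in knockout and 9900, 10500 and 10200 in wild type (0.01 ± 0.06, limma adjusted p = 0.97).

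**Figure D2:**
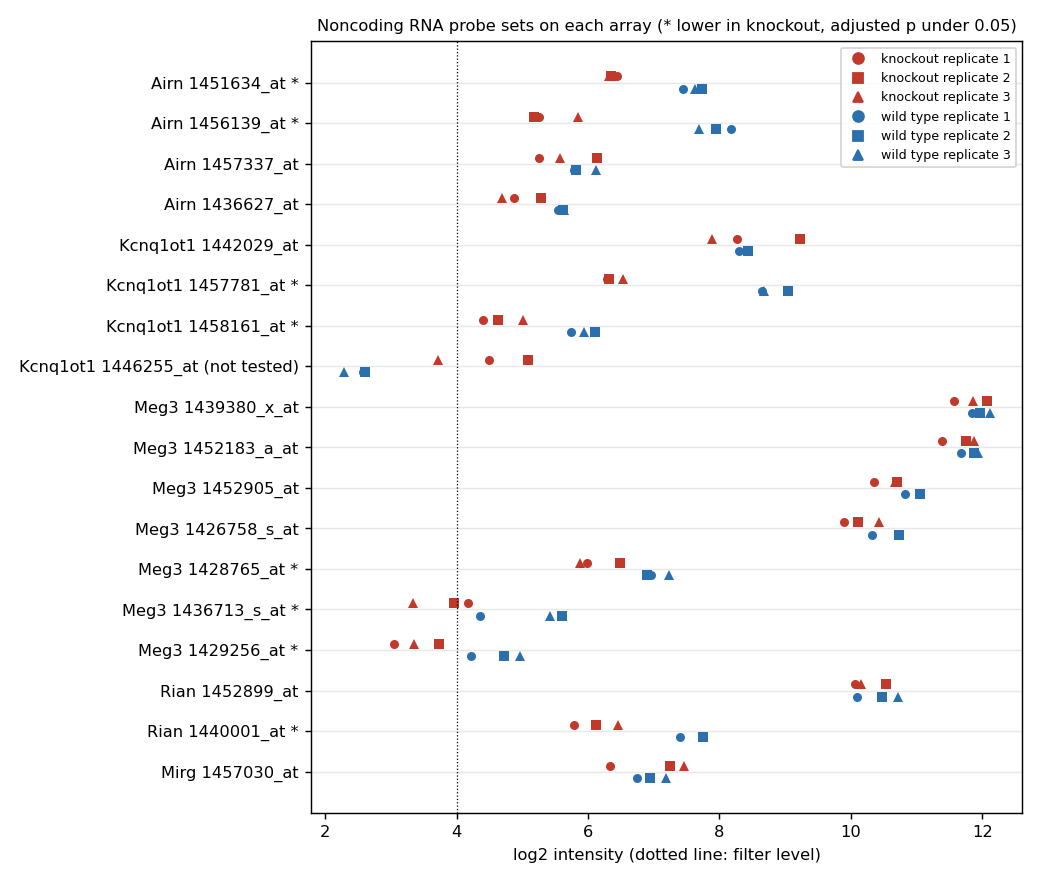
Log2 intensity on each array for the 17 tested probe sets of the noncoding RNAs and for Kcnq1ot1 1446255_at, knockout in red and wild type in blue, with the filter at 4 as a dotted line. The 8 starred probe sets fell, and at Kcnq1ot1 1457781_at the knockout arrays sit at 78 to 92.2 (linear) against 402 to 528.

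Among the protein-coding genes, 6 of 42 tested probe sets fell (14.3%) and 0 rose, where 5.15% were lower and 1.46% higher over all. None was the brightest of its gene (0 of 23, against 2.27% lower over all genes), and 6 of the 19 others fell (31.6%, against 5.04%). Igf2, the paternally expressed fetal growth factor, was bright and overlapped between the groups at its brightest probe set, with 8920, 9390 and 9950 in knockout and 9100, 10300 and 10100 in wild type (-0.06 ± 0.07, limma adjusted p = 0.695). At 1415931_at it read 136, 120 and 111 against 189, 435 and 357. It fell there by 1.34 ± 0.27 (limma adjusted p = 0.0163), a call lost when knockout replicate 3, or wild-type replicate 2 or 3, was left out (up to 0.0645).

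Dlk1, the paternally expressed membrane protein of the Dlk1-Dio3 domain, was the exception among bright probe sets. At 1442724_at it had 1210, 1480 and 1310 in knockout against 1970, 2380 and 2430, and it fell by 0.76 ± 0.12 (limma adjusted p = 0.00478, 1.69-fold lower). Its brightest, 1449939_s_at, read 6710, 7780 and 7700 against 7830, 8600 and 9300 (-0.21 ± 0.09, 0.2), also lower in every knockout array.

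Gnas encodes a stimulatory G protein subunit and several other imprinted transcripts. It read 111, 115 and 104 in knockout and 242, 306 and 332 in wild type at 1453413_at and fell by 1.40 ± 0.17 (limma adjusted p = 0.000963, 2.64-fold lower). Its brightest probe set overlapped between groups (-0.15 ± 0.14, 0.579).

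Plagl1, a paternally expressed zinc finger factor, had 59.7, 62.7 and 71.4 against 147, 201 and 124 at 1438588_at. It fell by 1.26 ± 0.21 (limma adjusted p = 0.00478), while 1450533_a_at (-0.79 ± 0.22, 0.0678) and the brightest, 1426208_x_at (-0.33 ± 0.16, 0.28), did not pass. Grb10, an adaptor that dampens insulin and IGF receptor signals, had 14.6, 14.8 and 21.3 against 29.4, 42.6 and 38.2 at 1430164_a_at. It fell by 1.13 ± 0.22 (limma adjusted p = 0.0129, up to 0.0597 without wild-type replicate 2 or 3), with 2 knockout arrays under the filter, while the brightest differed by -0.03 ± 0.10 (0.894). Impact, a regulator of translation, had 23.9, 25 and 46.8 against 72.5, 58 and 99.9 at 1446750_at. It fell by 1.30 ± 0.29 (limma adjusted p = 0.0253; 0.0819 without knockout replicate 1), a call also lost when knockout replicate 2, wild-type replicate 1 or wild-type replicate 3 was left out, and its brightest differed by -0.44 ± 0.18 (0.198).

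**Figure D3:**
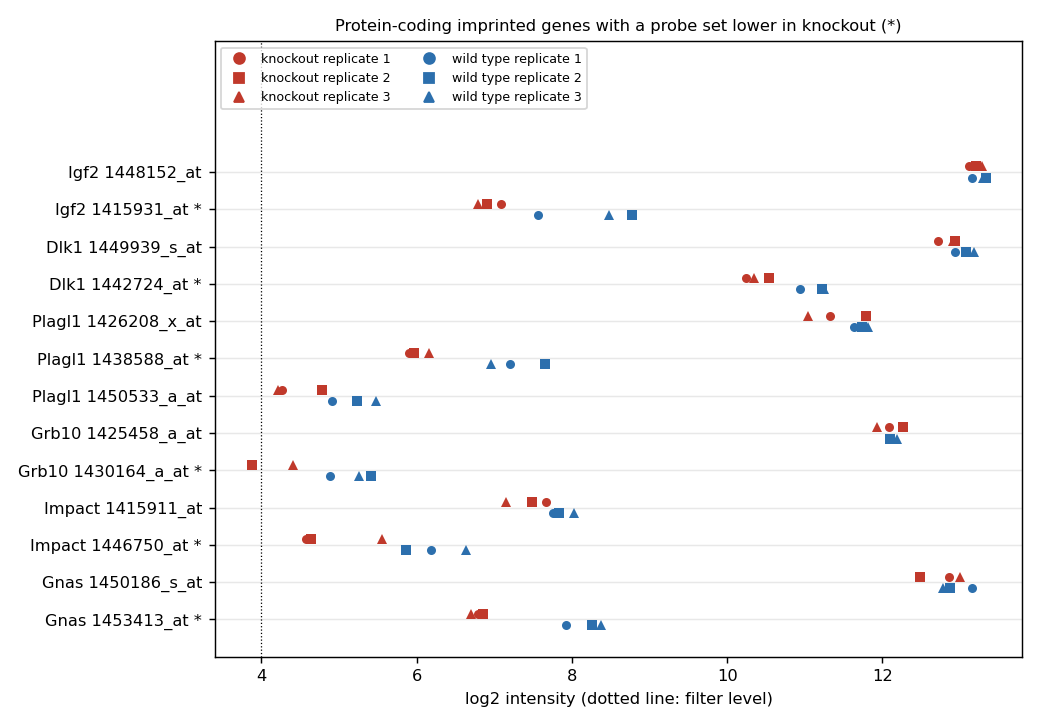
Log2 intensity on each array for the tested probe sets of the 6 protein-coding imprinted genes that had a call, knockout in red and wild type in blue, with the filter at 4 as a dotted line. Starred probe sets fell; at Gnas 1453413_at the groups read 104 to 115 and 242 to 332 (linear), while at the brightest Gnas probe set they overlap.

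Single-gene probe sets of the other domains did not pass with all arrays. Peg3, a zinc finger gene of the paternal copy, read 412, 326 and 158 in knockout and 484, 562 and 545 in wild type at 1417356_at (-0.93 ± 0.29, limma adjusted p = 0.0979). It passed without knockout replicate 1 (-1.22, 0.0339), and its brightest probe set differed by -0.06 ± 0.06 (0.659). Peg10, a retroelement-derived gene, gave 38.4, 27 and 9.01 against 29.4, 80.4 and 85.6 (-1.48 ± 0.53, 0.144), with overlapping groups. Zdbf2, a zinc finger gene, was lower in every knockout array, at 195, 188 and 264 against 300, 318 and 281 (-0.49 ± 0.17, 0.133).

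Copg2, a coat protein gene that overlaps Mest on the opposite strand, had the only tested member probe set with every knockout array higher. Its intensities were 655, 611 and 642 against 500, 469 and 472 (0.41 ± 0.12, limma adjusted p = 0.0866), whereas Mest, of a hydrolase family, differed by 0.03 ± 0.09 (0.896). Ndn, a MAGE family gene, was bright and even, its 5 tested probe sets differing by -0.06 to 0.09. The brightest probe set of Ube3a, the ubiquitin ligase of the same domain, differed by -0.17 ± 0.10 (0.375). Nnat, a membrane protein gene, differed by 0.15 ± 0.10 (0.453), Slc38a4, an amino acid transporter, by 0.10 ± 0.19 (0.806) and Sgce, a sarcoglycan, by 0.01 ± 0.18 (0.978). The brightest probe sets of Asb4, Mkrn3, Peg12 and Usp29 differed by -0.10 to 0.22, and none passed. The other Usp29 probe set, 1419237_at, was lower in every knockout array, at 12.5, 13.1 and 14.4 against 21.5, 18 and 19.7 (-0.57 ± 0.17, limma adjusted p = 0.0864). It passed the filter only through wild type, and it passed the test with eBayes without the trend (0.0422). Zim1, Magel2, Rasgrf1, Nap1l5 and the probe set that names Snrpn alone had signal under the filter in both groups.

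Snrpn, which encodes a splicing protein, was otherwise read through probe sets that also name Snurf, made from the same transcript. Of the 4 tested, 1435716_x_at read 198, 188 and 199 in knockout and 120, 127 and 114 in wild type. It rose by 0.70 ± 0.15 (limma adjusted p = 0.0212, 1.62-fold), or 0.0574 without knockout replicate 1, and the call ended also without any 1 wild-type array. The other 3 did not pass (0.49, 0.37 and -0.23).

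**Figure D4:**
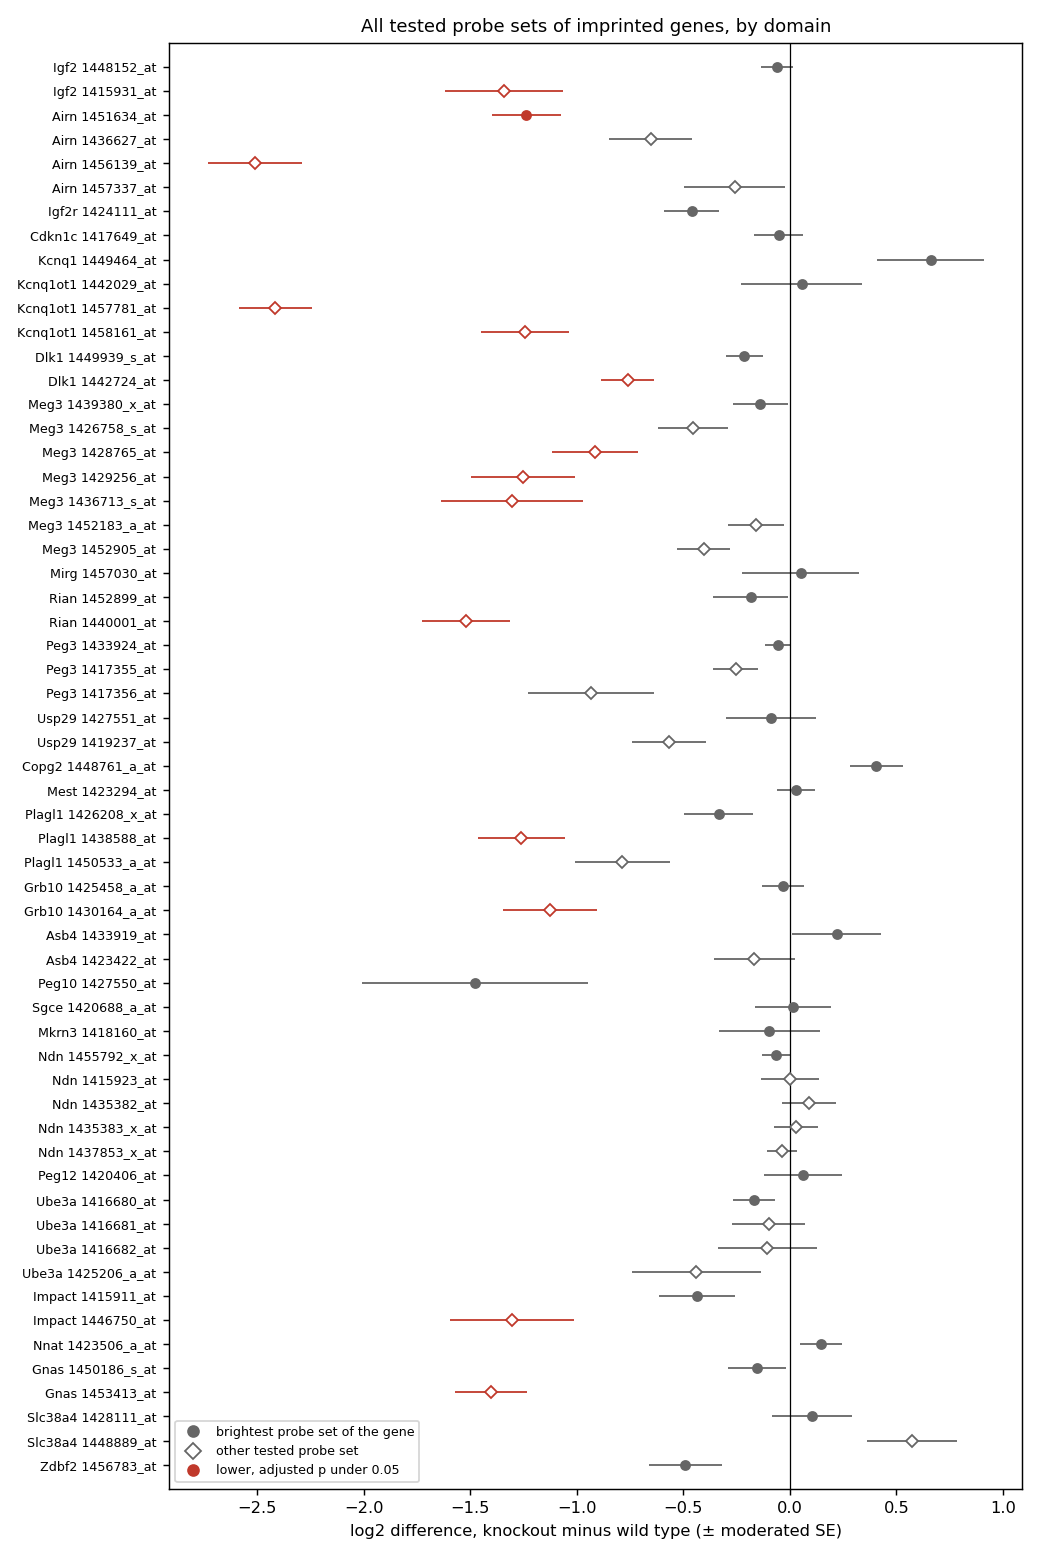
Log2 difference, knockout minus wild type, for the 59 tested probe sets of imprinted genes, grouped by domain, with bars of 1 moderated standard error. Filled circles are the brightest probe set of a gene, open diamonds the others, and red marks the 14 that fell; Airn 1451634_at is the only filled red circle.

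By parental copy, 0 of 10 maternally expressed genes fell at the brightest probe set (median -0.04) and 1 of 17 paternally expressed ones (-0.06). Over all genes 2.27% were lower there. Of all their tested probe sets 5 of 22 and 8 of 35 fell, against 5.15% of all tested probe sets. Gnas, which was not assigned to 1 parental copy, stands in neither group, so its call is not counted here. Whether these shares differ was not tested.

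Since probe sets of 1 gene disagreed, the ratio of each other probe set to the brightest of its gene was fitted on the same arrays, chosen after seeing the data. Of the 31 ratios of 16 imprinted genes, 4 fell and 0 rose, with 1.91% of all 7644 ratios lower and 0.693% higher. They were those of Kcnq1ot1 1457781_at (-2.47, limma adjusted p = 0.0135), Rian 1440001_at (-1.33, 0.0245), Meg3 1429256_at (-1.11, 0.0247) and Airn 1456139_at (-1.27, 0.0357), all noncoding. The ratio of Meg3 1429256_at rests on 3 knockout arrays under the filter, so its size is not exact. That probe set passed the filter only through wild type, so a fall of its ratio was favoured in advance. Those of Gnas (0.0564), Igf2 (0.0578), Grb10 (0.0747), Meg3 1428765_at (0.076) and Dlk1 (0.0989) did not pass. Of the 31 ratios, 22 were negative. Within Airn, 1457337_at (0.98, limma adjusted p = 0.0854) and 1436627_at (0.58, 0.16) ran the other way, and neither passed. When knockout replicate 1, knockout replicate 2 or wild-type replicate 3 was left out, 1 ratio fell, that of Kcnq1ot1 1457781_at, and 0 did when wild-type replicate 2 was.

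The count of genes turned on how probe sets were combined. With the mean of all tested probe sets of a gene, 8 of 28 imprinted genes fell and 0 rose, against 1.98% lower and 0.899% higher over all genes. These were Kcnq1ot1 (-1.20, limma adjusted p = 0.00684), Airn (-1.16, 0.00511), Impact (-0.87, 0.0292), Rian (-0.85, 0.0331), Plagl1 (-0.79, 0.0278), Gnas (-0.78, 0.00606), Grb10 (-0.58, 0.0461) and Dlk1 (-0.49, 0.0385). Meg3 (0.0588) and Igf2 (0.0556) did not pass there.

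Of 21 tested genes that set, keep or erase imprints, 1 rose and 0 fell at the brightest probe set, where 1.28% were higher and 2.27% lower over all genes, and the median was -0.03. The gene that rose was Dppa3, which shields methylation in the oocyte and zygote (4.22 ± 0.76, limma adjusted p = 0.00817). It read 1180, 197 and 76.8 in knockout, highest in knockout replicate 1, without which the difference was 3.13 (0.00208). With 2 wild-type arrays under the filter and set at its level, it was at least 15.49-fold higher, or 7.29-fold without knockout replicate 1. That call ended with robust eBayes (limma adjusted p = 0.0625). Dnmt3l, a cofactor in setting maternal imprints, and Tet3 were under the filter on all arrays. Of 24 other imprinted genes tested, 1 rose and 2 fell, against the same 1.28% and 2.27%. Ddc, an amino acid decarboxylase, rose by 1.45 ± 0.30 (limma adjusted p = 0.0183). Ppp1r9a, an actin-binding protein gene, fell by 0.53 ± 0.11 (0.0153; 0.0504 without knockout replicate 1) and Ago2, the slicer of RNA interference, by 0.55 ± 0.12 (0.0209; 0.0565 without it); the median was 0.04. None of these 3 calls held without wild-type replicate 2.

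Of 13 tested genes of the IGF pathway, Irs4, an adaptor of the insulin and IGF1 receptors, fell by 0.86 ± 0.18 (limma adjusted p = 0.0168, 0.051 without knockout replicate 1), and 0 rose, against 2.27% lower and 1.28% higher over all genes. The call of Irs4 ended also without any 1 wild-type array. The median of the list was -0.18. The receptor Igf1r did not pass (-0.77, limma adjusted p = 0.12), but did without knockout replicate 1 (-1.07, 0.016). The receptor Insr (-0.54, 0.119) and the binding protein Igfbp2 (0.39, 0.0901) did not pass.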

How the data were processed

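Total RNA of 6 ovary samples was measured on 6 Affymetrix arrays. Per the submitters' processing notes the deposited values were made with GCRMA, whose version is not given in the sources used here, and the values show a linear intensity per probe set. The files name no genome build. The deposited intensity values were used as log2 intensity, with no further normalization. Of 45101 probe sets, 64 controls were left out, and GEO's platform annotation gave 1 gene symbol to 34945, several to 932 and none to 9160. Probe sets with log2 of at least 4 (intensity 16) on at least 3 of 6 arrays were tested in R 4.3.3 by limma 3.58.1, two-sided, with lmFit and an intensity trend in eBayes, with Benjamini-Hochberg adjustment over 22040 probe sets and a threshold of 0.05. All 6 arrays, 3 per group, entered the fit with no covariate, and the number of arrays limits the precision.

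The text names all 37 members, the called genes of the lists of imprint machinery, other imprinted and IGF pathway genes, and genes beside them; members and lists were chosen with earlier results of these data known. Alternatives were the filter, normalization, variance model, probe set choice, the replicate number as a block and each array left out; the ratios between probe sets were added after the data were seen. Same-numbered arrays did not deviate together (correlations of -0.17, -0.25 and -0.17), and 0 pairs of arrays held identical values. Tested on simulated data of the knockout against wild-type comparison over 22040 probe sets, the fit recovered 8, 28, 48 and 50 of 50 probe sets changed by 0.5, 1, 2 and 3 on the log2 scale, with 5 unchanged ones called. The simulated noise was normal and independent between probe sets. Deviations that many probe sets share on an array were not simulated, so the number of false calls may not carry over.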

Additional observations from a re-analysis of the deposited data

How the results depend on the processing

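Across 69 named differences and 1039 refits, 39 refits reversed a sign, 0 of them for a called difference. Of 20 called differences 8 kept their call in every alternative run: both calls of Airn and of Kcnq1ot1, and those of Rian, Dlk1, Gnas and Plagl1. With each array left out in turn, the counts past the threshold ranged from 1 to 2 for imprinted genes (1 in the analysis reported), 5 to 8 for noncoding probe sets (8), 8 to 16 for member probe sets (14), 1 to 2 for imprint machinery (1), 0 to 5 for other imprinted genes (3), 0 to 2 for the IGF pathway (1) and 0 to 6 for the ratios (4). In the alternatives that kept all arrays, 6 to 10 noncoding probe sets and 11 to 17 member probe sets passed. With no filter, 2 imprinted genes passed, 1 of them higher (Phlda2), and 9 ratios. Imprinted genes past the threshold were 5 when probe sets marked as matching more than 1 transcript were left out, and 8 when all probe sets of a gene were averaged. Robust eBayes left 0 machinery genes by limma. In the reported analysis 3 of 21 had an unadjusted p under 0.05 in limma, against 2076 of 11897 over all genes. Array weights gave 5 other imprinted genes, 2 of the IGF pathway and 8 ratios. With the replicate number as a block, 1 other imprinted gene and 1 ratio passed, and Meg3 1428765_at and 1436713_s_at, Ago2, Ppp1r9a and Snurf and Snrpn 1435716_x_at lost their calls; the shared numbers do not pair these samples. Except where the alternative itself uses fewer arrays, the cause was not tested.

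Signs that reversed were all of uncalled differences. Array weights gave -0.0374 for Sgce, -0.00952 for Ndn 1435383_x_at, -0.15 for Mirg and -0.015 for H19 and Mir675. Quantile normalization gave 0.011 for Ndn 1415923_at, 0.0080 for Mkrn3, 0.046 for Usp29 1427551_at and -0.024 for H19 and Mir675, and median centring 0.010 for Ndn 1415923_at. Averaged probe sets gave -1.20 for Kcnq1ot1 and 0.0034 for Ndn. With an array left out, the differences ranged from -0.15 to 0.11 for Ndn 1415923_at, -0.059 to 0.18 for Ndn 1435382_at, -0.076 to 0.094 for Ndn 1435383_x_at, -0.16 to 0.0092 for Ube3a 1416681_at, -0.26 to 0.19 for Ube3a 1416682_at, -0.16 to 0.0068 for Cdkn1c, -0.30 to 0.16 for Mkrn3, -0.10 to 0.17 for Peg12, -0.17 to 0.12 for Sgce, -0.020 to 0.075 for Mest, -0.12 to 0.051 for Grb10 1425458_a_at, -0.23 to 0.078 for Usp29 1427551_at, -0.083 to 0.31 for Slc38a4 1428111_at, -0.33 to 0.34 for Kcnq1ot1 1442029_at, -0.17 to 0.39 for Mirg, -0.85 to 0.24 for Snurf and Snrpn 1421063_s_at and -0.016 to 0.040 for H19 and Mir675. The 36 untested member probe sets did not reach the filter, log2 4 on at least 3 of the 6 arrays. With no filter, Kcnq1ot1 1446255_at (1.95, limma adjusted p = 0.00256) and Phlda2 1417837_at (2.03, 0.0182) were higher in knockout. Rian 1427580_a_at (-1.07, 0.0403) was lower.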

Other observations

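Among imprinted genes outside the 37 members, 3 of 13 tested probe sets other than the brightest fell (23.1%), against 5.04% over all genes, and 0 rose. Ppp1r9a 1458942_at read 43.5, 58.8 and 64.9 in knockout and 260, 272 and 226 in wild type, with the groups far apart, and fell by 2.20 ± 0.19 (moderated SE, 3 samples per group; limma adjusted p = 0.000184, 0.000582 without knockout replicate 1). The others were probe sets of Ago2 and of Dcn, a matrix proteoglycan that also stands in the stroma list. In the imprint machinery list 1 of 21 such probe sets fell, a probe set of Dnmt3a, and in the IGF pathway list 0 of 20, against 5.04% over all genes. The brightest probe set of Dnmt3a did not pass (-0.12, limma adjusted p = 0.463). An unadjusted p under 0.05 in limma was seen for 10 of the 21 and 4 of the 20. Over all genes 1531 of 7644 such probe sets had one.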
